A study of Mus musculus with 24 samples.

Results

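CpG islands are stretches of DNA dense in CpG, the dinucleotide that carries most DNA methylation in mammals, and they are known to sit mostly at gene starts and to be little methylated there, whereas the bodies of genes are commonly methylated. The fragments described here were MspI fragments that the deposited annotation placed in the core of a CpG island, within an exon or intron of a gene, with their far edge more than 2000 bp inside the gene from its start. There were 22 such fragments in 9 genes, out of 65535 fragments in a table that ended within chromosome 3. They were measured by reduced representation bisulfite sequencing (RRBS), in which genomic DNA is cut by MspI at CCGG, treated with bisulfite and sequenced, in brown adipose tissue (BAT) of female C57BL/6J mice at postnatal day 12. The 12 DDT libraries came from pups whose dams were dosed by gavage around birth with o,p'-DDT mixed with its isomer p,p'-DDT, and the 12 VEH libraries from pups of dams given the olive oil vehicle; each library was a pool of female littermates, so that a value is a mean over pups and over all cell types of the tissue.

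The label of CpG islands inside gene bodies did not hold for these fragments. They lay in 9 islands of 2287 to 3456 bp, and all 9 islands spanned the start of the gene in which the fragments lay. The fragments lay in the inner parts of long islands at gene starts, 2005 to 2841 bp in, and they are called island tail fragments here. In Efna3 they were not the inner end, since the island reached 3337 bp into the gene. Its fragments lay at 2033 and 2125 bp, and no core fragment beyond them was tested. Only 21 of the 1474 islands with a core fragment in the table (1.42%) were as long as the shortest of the 9, and the median island was 741 bp long. By the authors' classes 12 of the 22 were exonic and 10 intronic. In GENCODE M21, the 4 Fzd5 and the 3 Tfap2c fragments were coding sequence, the 5 Dlx2 fragments covered coding sequence and the 3′ untranslated end of the last exon, the 2 Bcl2l11 fragments lay in an exon of a noncoding transcript that begins inside the gene, and the fragments of 8430427H17Rik (named Nol4l in that annotation), Efna3, BC107364 and Lef1 were intronic.

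The methylation level of a fragment was the percentage of its CpG calls that were methylated, and it was set only for libraries with 10 or more calls. Tests took in the fragments for which each group had 8 or more libraries with a level. Of the 22 fragments, 11 in 7 genes were tested. The 11 that were not tested were 104 to 220 bp long, those tested 36 to 135 bp, and the median calls per library were at most 12.0 in each untested fragment. Both BC107364 fragments had no call in any library, so that nothing is said of that island's tail. The share tested was 50%. That of island core fragments closer to gene starts was higher (79.9% of 4728). That of gene body fragments outside islands, anywhere beyond 2000 bp from the start, was lower (27.4% of 17506).

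**Figure D1:**
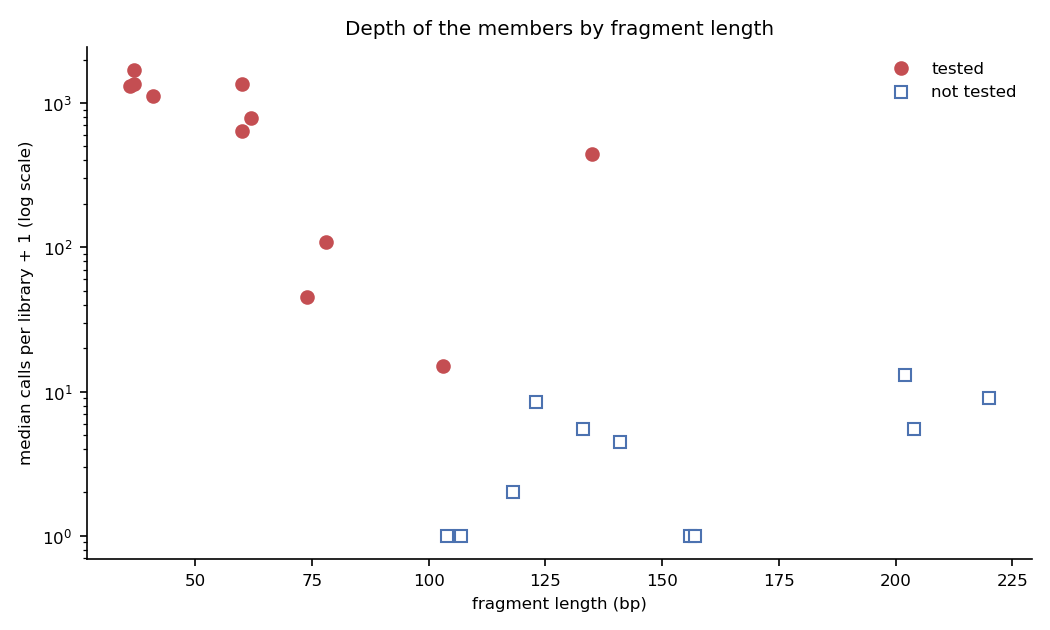
Median CpG calls per library plus 1 (vertical, log scale) against fragment length in bp (horizontal) for the 22 island tail fragments; filled points were tested and open squares were not. Depth dropped with length, and the 135 bp Fzd5 fragment, with a median of 443.5 calls, stood above every other fragment longer than 100 bp; its calls kept a fixed ratio to those of its 37 bp neighbour and may come from the same reads, which was not tested.

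The sequences below are those on which the comparisons turned, on the plus strand of GRCm38, with each CpG in capitals. They were chosen to show the methylated tail of the Fzd5 island beside the start of the same island, 4 little methylated tails, and the first tested fragment beyond the Lef1 island; the distance is that of the far edge from the gene start, or of the near edge upstream of it for the first.
Fzd5, 115 bp, chr1:64737864-64737923: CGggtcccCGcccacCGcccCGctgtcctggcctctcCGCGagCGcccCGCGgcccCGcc
Fzd5, 2572 bp, chr1:64735177-64735311: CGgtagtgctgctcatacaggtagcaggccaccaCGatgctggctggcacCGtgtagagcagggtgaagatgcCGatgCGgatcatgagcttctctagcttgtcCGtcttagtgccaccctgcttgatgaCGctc
Fzd5, 2609 bp, chr1:64735140-64735176: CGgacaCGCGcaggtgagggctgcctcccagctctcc
Dlx2, 2005 bp, chr2:71544748-71544807: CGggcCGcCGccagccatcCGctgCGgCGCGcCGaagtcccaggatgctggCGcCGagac
8430427H17Rik, 2064 bp, chr2:153527906-153527941: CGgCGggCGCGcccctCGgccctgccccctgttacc
Efna3, 2033 bp, chr3:89320931-89320967: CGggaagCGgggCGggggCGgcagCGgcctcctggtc
Lef1, 2022 bp, chr3:131112433-131112494: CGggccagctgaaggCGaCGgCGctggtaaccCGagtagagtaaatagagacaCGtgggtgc
Lef1, 2733 bp, chr3:131113145-131113205: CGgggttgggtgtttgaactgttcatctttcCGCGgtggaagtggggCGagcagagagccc
Each begins with the CGG that MspI leaves. The listed fragment at the start of the Fzd5 island held 10 CpGs in 60 bp, while the listed tail fragments held 3 in 37 bp and 7 in 135 bp. The untested Fzd5 tail fragment at 2841 bp, not listed, held 13 in 123 bp, or 10.6 per 100 bp. The lower density of the listed tail fragments was thus not that of the whole tail. Per 100 bp, the 3 tested Fzd5 tail fragments held 5.19 to 8.11 CpGs and the 8 of the other genes 5.41 to 16.7, so that the ranges overlapped. The median over the tested tail fragments was 9.68 CpGs per 100 bp, between 11.5 for island fragments near gene starts and 4.81 for gene body fragments outside islands.

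Before the levels are given, 2 DDT libraries have to be set apart. The table held 3469 tested fragments with a mean VEH level of 20% to 80%. Over those in which a library had a level, its mean difference from the VEH mean was taken. It was -11.8 percentage points in DDT replicate 4 and -7.91 points in DDT replicate 12, and between -4.12 and 3.0 points in the other 22 libraries. DDT replicate 4 had a level in only 1437 of these fragments and DDT replicate 12 in 2879, against 2964 to 3466 in the other 22 libraries. Their part in the differences between groups at the tail fragments is given by leaving them out, where enough libraries remained. The counts of fragments higher and lower in DDT, over gene lists and over all tested fragments, include both. What set these libraries apart was not tested. Total CpG calls ranged from 8371958 to 13768991 in VEH and from 9895508 to 14124652 in DDT libraries, and the island tail fragments together received 6707 to 10787 calls in VEH and 5626 to 13422 in DDT libraries. The mean chi-square of the difference between 2 libraries, near 1 for independent counting, was at least 1.72 in all 276 pairs. It takes calls as independent, so that values a little above 1 cannot be told from sampling noise. The pairs with DDT replicate 4 had 51.8 to 70.0. The 95% intervals of differences below come from the spread between libraries, and each SD from counting takes calls as independent, although several calls come from 1 read and no molecular identifiers are described.

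In VEH libraries, the tested island tail fragments were little methylated in 6 of the 7 genes and methylated at about the middle of the scale in Fzd5. The 8 tested fragments outside Fzd5 had mean levels of 1.95% to 7.87%, and the 3 in Fzd5 50.9% to 67.8%. No tested fragment exceeded 80%. All VEH levels of the 3 tested Fzd5 fragments exceeded all those of the tested fragments of the other genes. Since the rule used position and not level, this split was not built into the choice of fragments, but it separates 1 gene from 6 and so is a description of that gene.

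Fzd5 encodes Frizzled-5, a receptor of Wnt signals. Its fragment at 2609 bp, 37 bp long, had levels of 45.8% to 53.0% in VEH with a median of 51.4%, a mean of 50.9% ± 2.22 (SD, n = 12) and a median depth of 1346 calls. In DDT the same fragment had 21.7% to 54.3% with a median of 50.9% and a mean of 48.0% ± 9.42 (SD, n = 12). The groups overlapped, and the 2 lowest DDT values were those of replicates 4 (21.7%) and 12 (37.7%), while the other 10 lay between 48.8% and 54.3%. The neighbouring fragment at 2572 bp, 135 bp long, had 59.8% to 70.7% in VEH with a median of 66.9% and a mean of 66.3% ± 3.10 (SD, n = 12). In DDT it had 39.6% to 73.8% with a median of 66.6% and a mean of 64.3% ± 9.35 (SD, n = 12). The lowest values were again those of DDT replicates 4 (39.6%) and 12 (57.1%), and the other 10 covered and slightly passed the VEH range.

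These 2 neighbouring fragments were not independent measurements. The calls of the shorter were 3.05 times those of the longer over all libraries and 2.96 to 3.21 times in each of the 24, and the variance of that split was 0.0572 of what independent counting would give. The shorter fragment holds 3 CpGs and the longer begins with a CpG at the shared MspI site. Which of the 7 CpGs of the longer fragment gave its calls cannot be told apart from counts per fragment, so that its depth and its level may be those of the CpG at the shared site, read together with the shorter fragment; this was not tested. Among all 7076 pairs of adjoining tested fragments in the table, 1358 (19.2%) varied by less than counting error in the same way. Neither adjoining pair that joins a tail fragment to an outside one, in Efna3 and Lef1, did so: their variances were 8.57 and 64.2 times counting error.

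The third tested Fzd5 fragment, at 2718 bp, had few calls, a median of 14.0 per library. Among the 9 VEH libraries with a level it had 50% to 83.3%, with a median of 66.7% and a mean of 67.8% ± 11.7 (SD), and the SD expected from counting alone was 10.9. Among the 8 DDT libraries with a level it had 52.1% to 100%, with a median of 67.4% and a mean of 70.1% ± 15.3 (SD). The groups overlapped almost wholly. The fourth Fzd5 fragment, at 2841 bp, reached 10 calls in 11 libraries only and was not tested. Its levels ran from 0% to 57.1% in 7 VEH libraries, with a mean of 29.8% and an SD of 22.0, and averaged 23.8% in 4 DDT libraries, below those of the tested Fzd5 fragments.

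Along the Fzd5 island the tested fragments from 1785 bp on had higher mean levels than those nearer the gene start, without a steady rise within either stretch. The untested fragment at 2841 bp had a lower mean than the tested ones from 1785 bp on. The 3 tested core fragments upstream of the start had VEH means of 1.52% to 6.15%, and the 5 between 281 and 707 bp inside had 3.03% to 9.13%. The fragment at 1491 bp had 9.68%, with an SD of 26.4 over 9 libraries. At 1785 and 1835 bp, still closer than the limit that defined the tail, the means were 51.1% ± 11.5 and 44.3% ± 5.24 (SD, n = 12). The only tested fragment beyond the island, at 6052 bp in the island's shelf (the flanking zone farther out than the shore), had 88.0% ± 7.85 (SD, n = 12) on a median of 29.0 calls. Within each VEH library, the 3 tail fragments exceeded the 8 tested core fragments inside the gene and nearer its start by 43.9 points on average, in 12 of 12 libraries.

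**Figure D2:**
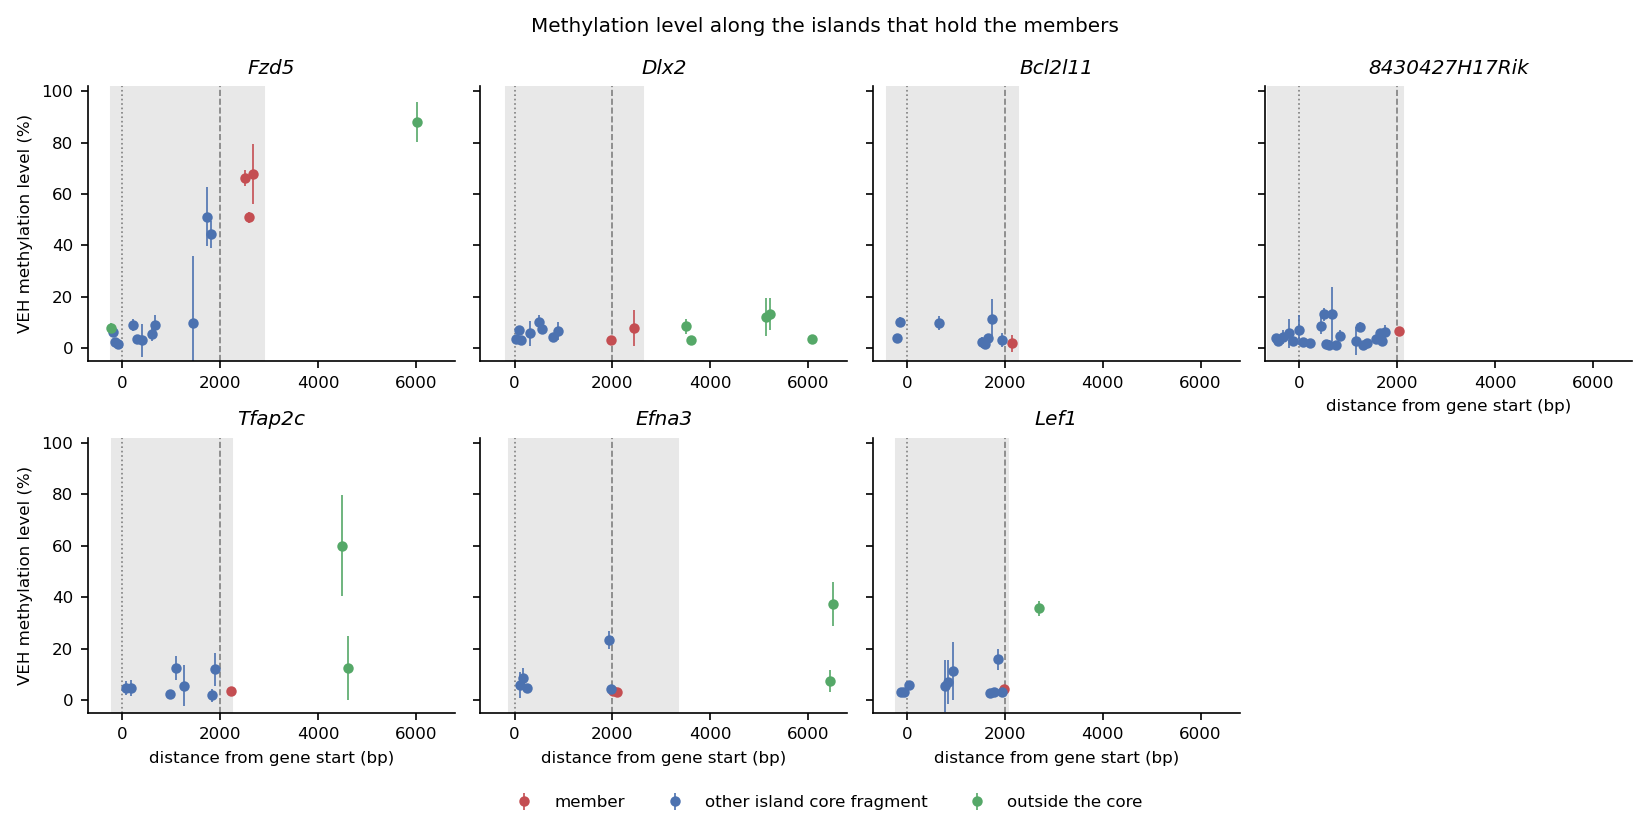
Mean VEH methylation level in percent with SD over libraries (vertical) against the distance of the fragment's midpoint from the gene start in bp (horizontal) in the 7 islands with a tested tail fragment. Grey marks the island, the dotted line the gene start and the dashed line 2000 bp; red points are island tail fragments, blue points the other core fragments and green points fragments outside the core. The Fzd5 island reaches 50.9% to 67.8% in its tail, while the red points of the other islands stay at 1.95% to 7.87%.

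The other tested tail fragments were little methylated, as was most of the island around them. Outside Fzd5, 68 of the 70 other tested core fragments of the islands were under 20% in VEH; 1 of the 2 exceptions was the Efna3 fragment at 1954 bp, with 23.2% ± 3.54 (SD, n = 12). It was followed by little methylated fragments of the same island, since those at 1996, 2033 and 2125 bp had 4.37%, 3.63% and 3.19%. Efna3 encodes ephrin-A3, a membrane ligand of Eph receptors. Its tail fragment at 2033 bp had 2.80% to 5.40% in VEH (median 3.51%, mean 3.63% ± 0.763 SD, n = 12) and 0% to 4.51% in DDT (median 3.26%, mean 2.93% ± 1.37 SD, n = 12). Its tail fragment at 2125 bp had 1.50% to 4.57% in VEH (mean 3.19% ± 1.03 SD, n = 12) and 0% to 4.56% in DDT (mean 2.97% ± 1.24 SD, n = 12). The groups overlapped in both, and the DDT value of 0% was that of replicate 4 in each.

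The tested tail fragments of the transcription factor genes were also little methylated. Dlx2, a homeobox gene of forebrain and craniofacial development, had 1.42% to 5.09% at 2005 bp in VEH (median 3.0%, mean 3.09% ± 1.04 SD, n = 12) and 0% to 4.23% in DDT (median 2.94%, mean 2.80% ± 1.16 SD, n = 12). Its shallow fragment at 2485 bp, in the 3′ untranslated part, had 0% to 21.7% in VEH (mean 7.87% ± 7.09 SD, n = 12) against a counting SD of 4.56. The untested Dlx2 fragments, on few calls, had VEH means of 24.6% at 2618 bp (3 libraries), 13.2% at 2411 bp (7 libraries) and 0% at 2209 bp (2 libraries). Tfap2c, which encodes the AP-2 gamma factor, had 2.78% to 4.52% at 2237 bp in VEH (median 3.46%, mean 3.59% ± 0.537 SD, n = 12), close to its counting SD of 0.573, and 2.16% to 6.32% in DDT (mean 3.78% ± 1.24 SD, n = 12). Lef1, a DNA-binding partner of beta-catenin in Wnt signalling, had 2.85% to 7.07% at 2022 bp in VEH (median 4.36%, mean 4.45% ± 1.04 SD, n = 12) and 0.26% to 9.60% in DDT (median 4.74%, mean 4.45% ± 2.23 SD, n = 12). The groups overlapped in all 4 tested fragments. Beyond the Lef1 island, the shore fragment at 2733 bp had 35.6% ± 2.90 (SD, n = 12) in VEH. The 5 tested fragments beyond the Dlx2 island had 3.25% to 13.4%, but they were assigned to another gene, Gm1631, as upstream of it. Tested shelf fragments inside genes had 60.0% and 12.5% beyond the Tfap2c island and 37.3% and 7.20% beyond the Efna3 island. Their median calls were 22.5, 23.5, 23.0 and 86.5 in the same order.

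Of the remaining 2 genes, Bcl2l11 encodes the pro-apoptotic protein Bim. Its tail fragment at 2193 bp had 0% to 10.9% in VEH (median 0.26%, mean 1.95% ± 3.34 SD, n = 12) and 0% to 29.0% in DDT (median 0%, mean 3.04% ± 8.27 SD, n = 12). Most libraries of both groups were near 0%, and 1 value, 29.0% in DDT replicate 2 on 124 calls, stood far above all others. The tail fragment of 8430427H17Rik at 2064 bp had 5.46% to 7.95% in VEH (median 6.46%, mean 6.63% ± 0.936 SD, n = 12) and 2.86% to 7.74% in DDT (median 5.72%, mean 5.49% ± 1.40 SD, n = 12). Here 9 of 12 DDT libraries lay below the VEH median and the ranges overlapped; the 2 lowest were DDT replicate 12, on 420 calls, and DDT replicate 4, on 29 calls, against 908 or more in every other library.

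**Figure D3:**
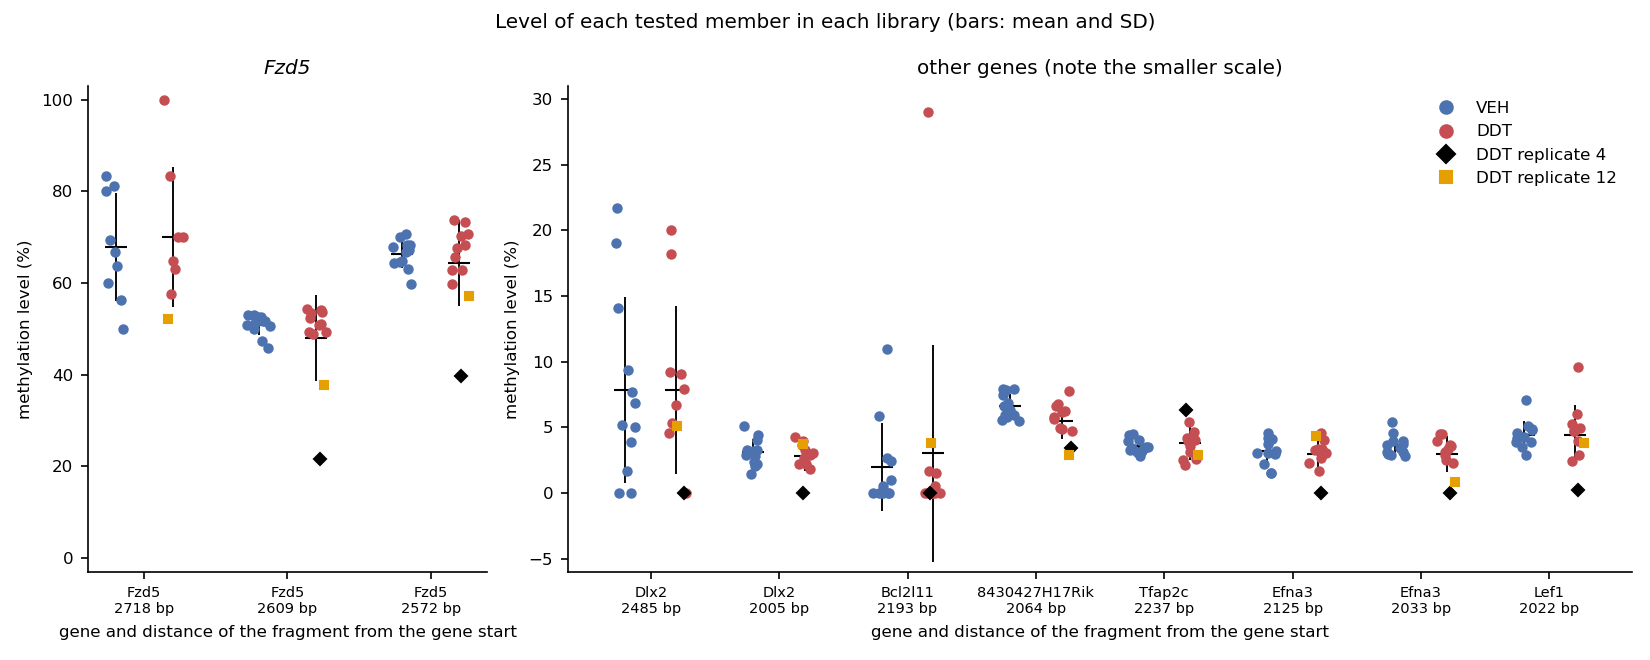
Methylation level in percent (vertical) of each of the 11 tested island tail fragments in each VEH (blue) and DDT (red) library, with the mean and SD; the left panel holds Fzd5 and the right panel the other genes on a smaller scale. DDT replicate 4 (black diamond) and DDT replicate 12 (orange square) lie below the other libraries in Fzd5 at 2609 and 2572 bp.

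The question of the design was whether perinatal DDT changed methylation in infant BAT. Each fragment of the table was tested by an ANOVA F test of the level, with Benjamini-Hochberg adjustment over all 20225 tested fragments. None of the 11 island tail fragments passed an adjusted p of 0.05, where the whole table had 0 fragments called (0.0%), and their adjusted p ranged from 0.869 to 1.0. At an unadjusted p under 0.05 there was 1 of 11, where 4.18% of all tested fragments were called, so that the share of the tail fragments rests on a single fragment. That fragment was 8430427H17Rik at 2064 bp, where DDT minus VEH was -1.14 points (95% interval -2.15 to -0.133; ANOVA p = 0.0282, adjusted p = 0.869). Without DDT replicate 4 its p was 0.0548, without DDT replicate 12 it was 0.0543, and without both it was 0.112, with differences of -0.95, -0.90 and -0.67 points, so that the direction stayed and the unadjusted call did not.

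Differences in the Fzd5 tail also moved with these libraries. At 2609 bp, DDT minus VEH was -2.83 points (95% interval -8.63 to 2.96), and 0.84 points without DDT replicates 4 and 12. At 2572 bp, it was -1.98 points (95% interval -7.87 to 3.92), and 1.21 points without them. In all, 8 of the 11 fragments were lower and 3 higher in DDT, with a median difference of -0.221 points beside -0.163 points over all tested fragments. The intervals at the well covered little methylated fragments of Dlx2 (2005 bp), Tfap2c, Efna3 and Lef1 stayed between -1.63 and 1.47 points. That of the shallow Fzd5 fragment at 2718 bp ran from -11.7 to 16.2 points, so that shifts within that range could not be told from 0 there.

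**Figure D4:**
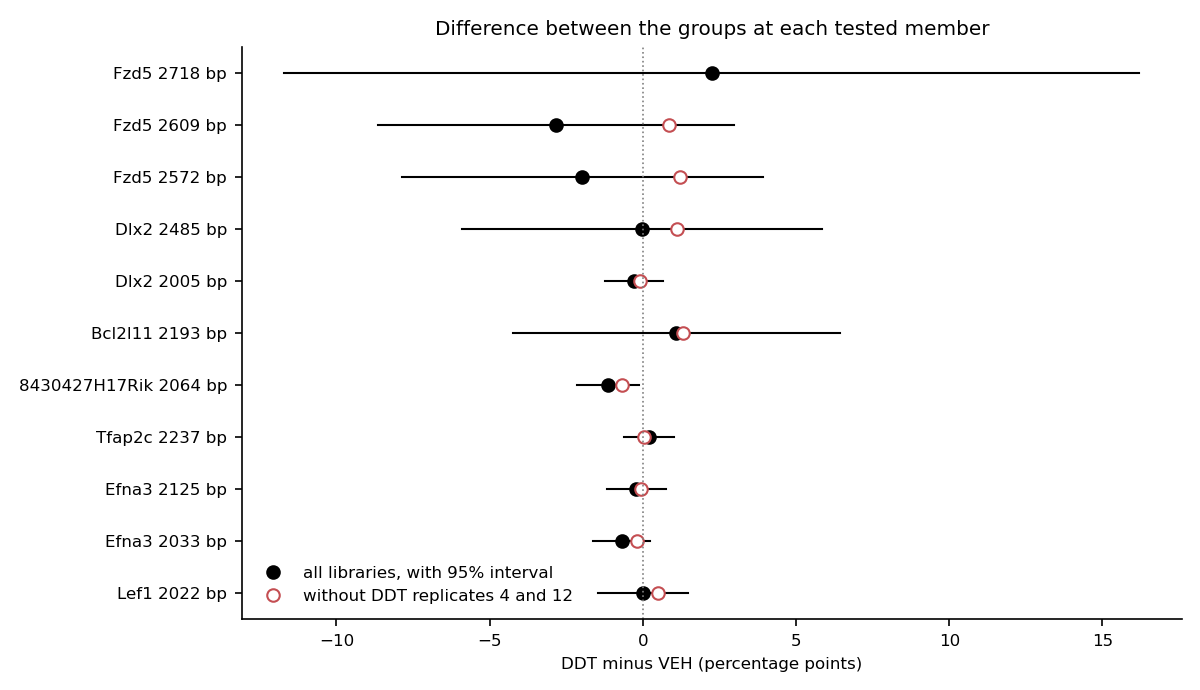
DDT minus VEH in percentage points (horizontal) for the 11 tested island tail fragments; filled points with lines give the difference and its 95% interval with all libraries, open points the difference without DDT replicates 4 and 12. The intervals include 0 except for 8430427H17Rik, and the Fzd5 fragments at 2609 and 2572 bp change sign; the Fzd5 fragment at 2718 bp had too few DDT libraries for the second value.

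Over the 9 tail fragments for which no library lacked a level, the mean level per library was 16.0% ± 0.515 (SD, n = 12) in VEH, from 15.2% to 16.9%. In DDT it was 15.3% ± 2.75 (SD, n = 12), from 7.92% in replicate 4 to 19.1% in replicate 2. The group ranges overlapped. Over all 11, DDT minus VEH was -0.70 points, and 0.29 points without DDT replicate 4.

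The tails were then set against other positions, within each VEH library. The permutation tests ask whether a difference recurred between libraries for fixed fragments, and not whether it holds for other fragments or genes. Over the 11 tested tail fragments the mean level was 18.7% ± 2.53 (SD, n = 12 libraries), against 5.45% ± 0.443 over the 3776 tested island core fragments in gene bodies within 2000 bp of the start. The difference of 13.3 points had the same sign in 12 of 12 libraries (two-sided exact paired permutation test, p = 0.000488, the smallest that 12 pairs allow, and adjusted p = 0.000488 over 3 comparisons). It was 8.39 points without the Fzd5 fragment at 2572 bp, whose calls followed its neighbour's. It rested on Fzd5: without the Fzd5 fragments, the tails minus the fragments near gene starts gave -1.15 points, lower in 11 of 12 libraries (exact permutation p = 0.00146, adjusted p = 0.00220). Against the 60 other tested core fragments inside the genes of the islands other than that of Fzd5, those 8 tails differed by -1.90 points, lower in 12 of 12 libraries (exact permutation p = 0.000488). Against the 4797 tested gene body fragments outside islands, which averaged 54.6% ± 1.05 (SD, n = 12), the tails differed by -35.8 points, lower in 12 of 12 libraries (exact permutation p = 0.000488, adjusted p = 0.000488), by -50.3 points without Fzd5 and by -22.5 points over fragments with complete levels. Those outside fragments lay anywhere beyond 2000 bp into their genes, so depth into the gene was not matched.

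The median level by distance hardly moved, while the share of higher levels did. Among tested island core fragments in gene bodies, the median VEH level was 3.52% up to 500 bp from the gene start, 4.06% from there to 1000 bp, 4.13% to 1500 bp, 4.37% to 2000 bp and 4.45% beyond. Fragments at 20% or more made up 1.44% of 2700, 2.30% of 870, 0.595% of 168, 15.8% of 38 and 27.3% of 11 fragments in the same order. The last 2 of these classes held few fragments, from 16 and 7 genes, and all 3 in the last came from Fzd5. In the class before it, Fzd5 also gave those at 1785 bp (51.1%) and 1835 bp (44.3%), and Efna3 that at 1954 bp (23.2%). Next to the limit of the rule, Bcl2l11 at 1997 bp (3.10%) and Efna3 at 1996 bp (4.37%) fell just outside, and Dlx2 at 2005 bp (3.09%) and Lef1 at 2022 bp (4.45%) just inside.

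**Figure D5:**
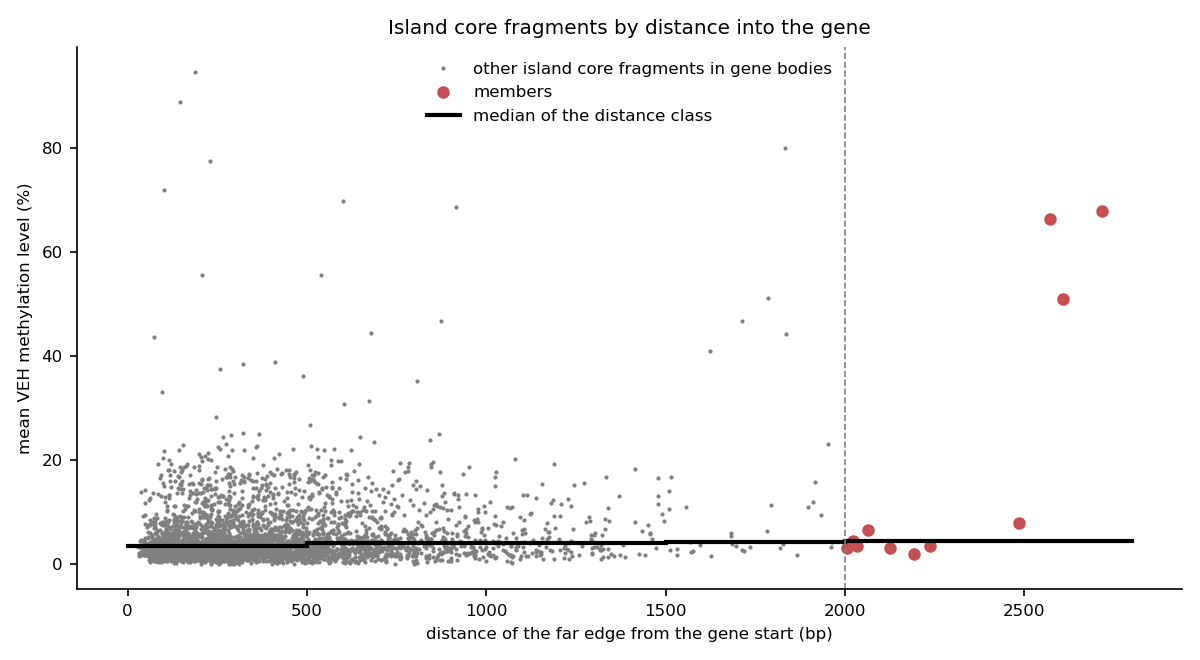
Mean VEH methylation level in percent (vertical) of the tested island core fragments in gene bodies against the distance of their far edge from the gene start in bp (horizontal); red points are the 11 island tail fragments, grey points all others, and black lines the median of each distance class. The medians lie between 3.52% and 4.45%, and the 3 Fzd5 fragments are the only red points above 20%.

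An island tail can lie near the start of another transcript. Within 1000 bp of an annotated transcription start of any gene in GENCODE M21 lay 6 of the 11 tested fragments, those of Bcl2l11, Tfap2c, Efna3 and Lef1 and Fzd5 at 2572 bp, and their mean VEH level was 13.8% ± 0.850 (SD, n = 12). The other 5 averaged 24.7% ± 5.70, which was 10.8 points higher in 12 of 12 libraries (exact permutation p = 0.000488, adjusted p = 0.000488). The p measures only how well this recurred between libraries. The far fragments were fixed and included Fzd5 at 2609 and 2718 bp, so that the difference is no test of distance to a transcription start. The size depended on the fragments taken in: it was 3.38 points with at least 20 calls, 6.34 with complete levels, 21.3 with a limit of 500 bp and 21.3 without the Fzd5 fragment whose calls followed its neighbour's. The Fzd5 fragments stood on both sides of that limit, at 929, 1064 and 1107 bp from the start of Gm38058, and with the limit at 2000 bp only 8430427H17Rik was far and the difference was -13.4 points. Without Fzd5 the far fragments, from Dlx2 and 8430427H17Rik, had 5.86% and the near ones 3.36%, a difference of 2.50 points in 10 of 12 libraries (exact permutation p = 0.00342, adjusted p = 0.00342).

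By function, 2 of the 9 genes, Dlx2 and Tfap2c, belonged to a list of 72 developmental transcription factors and held 8 of the 22 fragments, 3 of them tested. The list does not hold Lef1, described above among the transcription factor genes, so these counts are those of the list and not of all such factors. No tested fragment of that list passed the adjusted threshold among 949 over the whole table; 8 were higher and 28 lower in DDT at an unadjusted p under 0.05 (3.79%), none of them an island tail, beside 252 higher (1.25%) and 593 lower (2.93%) over all tested fragments. The lists of imprinted genes, of brown fat, lipid and insulin genes, of chromatin and DNA methylation genes, of collagen and matrix genes and of ion channel and neurotransmitter genes held none of the 9 genes, and none of their 74 to 303 tested fragments passed the adjusted threshold. Without adjustment, in the same order, 0 of these passed as higher and 2 as lower in DDT, then 2 and 9, 1 and 4, 6 and 2, and 4 and 6. Both directions together made up 2.7% of 74, 3.63% of 303, 2.65% of 189, 5.67% of 141 and 4.13% of 242 tested fragments. Over all tested fragments the share was 4.18%. All these counts include DDT replicates 4 and 12.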

How the data were processed

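RRBS was performed on BAT DNA of 12 DDT and 12 VEH pools of female littermates. Per the study's methods and the submitters' processing notes, the authors trimmed 50 bp single-end reads with Scythe and Sickle, aligned them to GRCm38 with Bismark 0.15.0 and Bowtie 2, and summed them by MspI fragment. The authors deposited the raw counts per fragment, 1 column of methylated and 1 of unmethylated CpG calls for each library, and for each fragment other annotation values such as the distance in bp from the gene start. Such reads cover only the ends of long fragments. Columns of calls were tied to samples by the library names in the labels. The table ends within chromosome 3, and later positions were not analysed here; 1 of the 9 genes is counted but not reported here.

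From these counts, levels, filters and ANOVA tests were computed as given above, with Python 3.11.15, NumPy 2.4.6, pandas 2.3.3 and SciPy 1.17.1, and a limma 3.58.1 alternative in R 4.3.3. The scripts were tested on simulated data with known shifts. All 21188 fragments checked began at a CCGG site of GRCm38; features came from GENCODE M21, sequences from the RefSeq GRCm38 genome. Parts were compared by two-sided paired sign-flip permutation over libraries. By the rule fixed for named fragments (smallest p, genes with most tested fragments, level classes, largest VEH spread), all 11 tested fragments were named. The members, lists and tests were chosen with earlier results of these data known. Same-numbered DDT and VEH libraries did not deviate together (correlations -0.15 to 0.176, over 0.1 in 3 of 12 pairs). Alternatives were other tests, other minimum calls, complete levels, a replicate block, omitted libraries, depth as a covariate and other limits.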

Additional observations from a re-analysis of the deposited data

How the results depend on the processing

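No island tail fragment was called at an adjusted p of 0.05 by ANOVA or by quasi-binomial regression, limma, other call minima, complete levels, a replicate block, a depth covariate or omission of DDT replicates 4 and 12. The unadjusted count of 1 became 0 by quasi-binomial regression, by limma and without DDT replicates 4 and 12 together, and was 0 when either was left out; the other settings, the replicate block included, gave 1. Over the whole table the unadjusted share ranged from 3.51% with limma to 7.72% with quasi-binomial regression. The replicate block, which the numbering does not justify, left the mean difference at -0.70 points. That was fixed in advance, since each block holds 1 library of each group.

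Small differences changed sign. In Fzd5, 2718 bp gave -0.30 points by quasi-binomial regression; 2609 bp gave 0.84 without both libraries; 2572 bp gave 0.24 by quasi-binomial regression, 0.27 and -1.32 without DDT replicate 4 or 12 and 1.21 without both. In Dlx2 at 2485 bp, limma gave 0.070 (log2 scale), the replicate block 0.52, omission of DDT replicates 4, 12 or both 0.74, 0.23 and 1.13 points, and the depth covariate 0.73. Without DDT replicate 4, Tfap2c gave -0.040 and Efna3 at 2125 bp 0.049, beside -0.35 in Efna3 without DDT replicate 12. Lef1 gave 0.21 by quasi-binomial regression, 0.38, 0.058 and 0.48 without DDT replicates 4, 12 or both, and 0.077 with the covariate. The mean DDT minus VEH over the fragments ranged from -1.80 (summed calls) to 0.62 points (both libraries omitted). The SD of 3.70 points between single libraries is not an error of that difference, which was not tested. That SD also holds differences in which fragments had a level. VEH replicates 1, 2 and 9, without a level at Fzd5 2718 bp, had the lowest VEH means.

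Chosen after seeing the data, omission of Fzd5 turned the comparison with fragments near gene starts to -1.15 points, and omission of the Fzd5 fragment whose calls followed its neighbour's left 8.39 points. A limit of 2000 bp turned the comparison by transcription start to -13.4, with 1 fragment left on the far side. A limit of 5000 bp into the gene left no fragment. Level classes kept their counts with limits of 10% and 90%. Depth limits long fragments most: the Fzd5 fragment at 2718 bp had a median of 14.0 calls, and 11 fragments had no test.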

Other observations

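Library composition differed at the island tails. DDT replicate 12 had the most calls of all 24 libraries in the fragments of Fzd5 at 2718 bp (73 calls), Dlx2 at 2485 bp (332 calls) and Bcl2l11 at 2193 bp (871 calls), and the fewest in Fzd5 at 2609 bp (215 calls) and 2572 bp (70 calls). DDT replicate 4 had the most calls in Dlx2 at 2005 bp (1974 calls) and the fewest in 8430427H17Rik (29 calls), Tfap2c (95 calls) and Lef1 (384 calls).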
